A study of Homo sapiens with 12 samples.

Results

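AP-1 is a family of dimeric transcription factors, and 7 of its genes, FOS, FOSB, FOSL1, FOSL2, JUN, JUNB and JUND, are described here together with ATF3, EGR1 and IER2, which respond to many of the same signals. The 10 genes were taken by symbol from the 58735 genes of the deposited count table, and all 10 were among the 15378 genes with enough counts to be tested. RNA was sequenced from Ovcar8, a human ovarian carcinoma cell line used as a model of high-grade serous disease, in 4 groups of 3 libraries. The groups with a knockdown overexpressed CCNE1 (cyclin E1, the partner of CDK2 at the start of S phase) and carried either of 2 short hairpin RNAs against TMLHE, an enzyme of carnitine synthesis. They are called shTMLHE 1 and shTMLHE 2. The CCNE1 group carried the same overexpression with no hairpin against TMLHE named in its label, and the titles of the control group say only control. The sample names in its descriptions hold the abbreviation EV, which was not interpreted. Cells grew in serum (RPMI with FBS) and were transduced with lentivirus and selected with puromycin, without any stimulation or starvation named in the labels. The labels name no group with a hairpin against another target and no second population per group, so a difference between groups cannot be told apart from a difference between these populations. Separate cultures are not stated for the replicates either, and every p-value therefore rests on a spread between libraries that may be technical. The series asks which genes differ between CCNE1 overexpression and control, and between each hairpin and CCNE1 overexpression.

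AP-1 dimers join a JUN protein to a FOS protein, to another JUN protein or to an ATF protein through a leucine zipper, and bind short palindromic sites in promoters and enhancers. FOS, FOSB, JUN, JUNB, ATF3, EGR1 and IER2 are classic immediate early genes. Serum, growth factors and stress switch them on within minutes through MAP kinases, without new protein synthesis, and their short-lived transcripts then decline. FOSL1 and FOSL2 (FRA1 and FRA2) lack the strong activation domain of FOS and are held at a steady level in cells with sustained ERK signalling. JUND is expressed in many resting and growing cells alike.

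The promoters of several of these genes carry the sites through which the family and its upstream factors act, and 4 of those with a match are shown. Promoters are from RefSeq (GRCh38.p14), run from 250 bases before the gene start to 50 after it, and were present for 9 of the 10 genes, FOSL1 being the exception. The sequences read 5′ to 3′ on the strand of the gene, and capitals mark the matched motif.

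JUND promoter: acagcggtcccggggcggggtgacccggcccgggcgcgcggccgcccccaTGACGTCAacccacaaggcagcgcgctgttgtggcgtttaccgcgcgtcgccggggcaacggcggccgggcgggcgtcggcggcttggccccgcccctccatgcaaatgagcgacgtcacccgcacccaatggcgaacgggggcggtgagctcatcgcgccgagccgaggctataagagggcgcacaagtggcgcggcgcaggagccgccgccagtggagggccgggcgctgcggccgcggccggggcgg
JUN promoter: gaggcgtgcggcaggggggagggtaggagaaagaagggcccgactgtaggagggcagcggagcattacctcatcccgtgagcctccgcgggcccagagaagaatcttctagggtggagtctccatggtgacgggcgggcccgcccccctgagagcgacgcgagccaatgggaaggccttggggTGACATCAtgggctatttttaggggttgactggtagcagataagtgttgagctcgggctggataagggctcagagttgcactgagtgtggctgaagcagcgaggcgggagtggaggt
FOSL2 promoter: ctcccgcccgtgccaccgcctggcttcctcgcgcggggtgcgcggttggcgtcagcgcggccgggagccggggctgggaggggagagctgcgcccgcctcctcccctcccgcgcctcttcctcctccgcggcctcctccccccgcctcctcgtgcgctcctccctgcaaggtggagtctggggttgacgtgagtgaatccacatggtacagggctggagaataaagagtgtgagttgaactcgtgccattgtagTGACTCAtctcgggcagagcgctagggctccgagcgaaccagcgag
EGR1 promoter: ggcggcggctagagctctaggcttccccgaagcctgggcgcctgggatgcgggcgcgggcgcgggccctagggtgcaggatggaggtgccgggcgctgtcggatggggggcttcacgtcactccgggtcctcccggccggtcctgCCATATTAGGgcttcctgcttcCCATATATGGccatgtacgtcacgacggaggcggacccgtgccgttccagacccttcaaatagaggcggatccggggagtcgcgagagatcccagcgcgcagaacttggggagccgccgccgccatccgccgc

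The JUND promoter (chr19:18281573-18281872, minus strand) has the cyclic AMP response element TGACGTCA, a site of CREB and ATF proteins, at positions -200 to -193, where 0 is the start base and negative positions lie before it. The JUN promoter (chr1:58783998-58784297, minus strand) has TGACATCA, the element through which JUN and ATF2 dimers are known to act on JUN itself, at positions -67 to -60. The FOSL2 promoter (chr2:28392608-28392907, plus strand) has the canonical AP-1 site TGACTCA at positions 4 to 10. The EGR1 promoter (chr5:138465229-138465528, plus strand) has 2 CArG boxes, CCATATTAGG and CCATATATGG, which serum response factor binds, at positions -105 to -96 and -83 to -74. Searched on both strands of all 35116 promoters of this length in the table, TGACGTCA was in 1.85%, TGACATCA in 2.61%, TGACTCA in 4.95% and a CArG box (CC, any 6 bases of A or T, then GG) in 1.29%. TGACATCA was added to the search after the JUN promoter had been read, and it also occurs at positions -123 to -116 of the upstream ATF3 promoter. A variant of the site, TTACGTCA on the opposite strand (in 0.416% of all promoters), was at -60 to -53 in FOSB. The core TATAAA of the TATA box, in 11.5% of all promoters, was at -33 to -28 in FOS, -30 to -25 in FOSB and -31 to -26 in JUNB. It was also at -230 to -225 of the downstream ATF3 promoter. The EGR site GCGTGGGCG, in 0.795% of all promoters, was in none of the members' promoters, and the IER2 promoter had no match to any motif searched. No matched motifs overlapped within these promoters. A match describes these letters only, and no binding was measured.

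Total counts ranged from 14054101 to 21457503 per library. CCNE1 averaged 1269 ± 49 CPM with shTMLHE 1, 847.1 ± 21.2 with shTMLHE 2, 1001 ± 34 in the CCNE1 group and 33.1 ± 1.28 in control (CPM, counts relative to the TMM-scaled library total; SD, n = 3 each). Its level with shTMLHE 2 relative to the CCNE1 group changed sign with the scaling, from the log2 fold change of -0.24 to 0.29 on total counts and 0.13 with the GC trend removed. TMLHE averaged 0.956 ± 0.286 and 0.482 ± 0.241 CPM with the hairpins, against 15.7 ± 2.69 CPM in the CCNE1 group and 16.5 ± 1.62 CPM in control, so both label checks had the labelled direction. Of the 11 markers listed for an ovarian serous line, PAX8, KRT7, KRT8, KRT18, MSLN and CDH2 were at 53.8 CPM or more in every library. EPCAM was at most 4.13 CPM, WT1, KRT19 and CDH6 were at most 0.952 CPM, and MUC16 was at 0 in all 12, so the list was met only in part. The 7 leukocyte markers summed to at most 2.98 CPM and the 5 endothelial markers to at most 3.86 CPM in any library. The fibroblast list summed to 1535 to 1629 CPM with shTMLHE 1, 1257 to 1296 with shTMLHE 2, 612.5 to 641.2 in the CCNE1 group and 900.3 to 968.2 in control, nearly all of it COL1A1, with DCN at 0 in all 12 libraries. In bulk RNA, fewer cells that express a gene and less RNA of it per cell cannot be told apart.

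The hairpin groups also differed from the others in the make-up of their RNA, which bears on several of the 10 genes. Scaling factors were 1.107 to 1.121 with shTMLHE 1 and 1.221 to 1.228 with shTMLHE 2, against 0.847 to 0.853 in the CCNE1 group and 0.860 to 0.864 in control. With total counts in place of these factors, the median log2 fold change of all tested genes moved to 0.43 with shTMLHE 1 and 0.56 with shTMLHE 2, against 0.03 in each comparison with TMM. The share of higher genes among all called genes was then 75.9% with shTMLHE 1 and 70.7% with shTMLHE 2, against 50% and 50.4% with TMM. Genes of high GC content were lower with the hairpins. Over 15373 genes, Spearman's rho between log2 fold change and GC content was -0.37 for shTMLHE 1 and -0.64 for shTMLHE 2 relative to the CCNE1 group (a description across genes, which are not independent). It was -0.38 for CCNE1 overexpression against control and 0.59 for shTMLHE 1 minus shTMLHE 2. The members span a wide range of GC content, from 46.7% in ATF3 to 69.7% in JUND, and 99.6% of tested genes have a lower GC content than JUND. Values on total counts, and with the trend on GC content and length removed, are therefore set beside many of the changes below.

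Levels that are scaled by length, the deposited FPKM, rank the family in Ovcar8. FOSL1 had the highest level, with a mean of 258.8 FPKM over the 12 libraries and rank 172 of the 15378 tested genes. JUN (90.7 FPKM, rank 524) and JUND (69.5 FPKM, rank 683) came next, and FOSL2 (18.9 FPKM) and IER2 (17 FPKM) stood at ranks 2388 and 2610. JUNB, EGR1 and ATF3 were at 8.62, 4.33 and 3.08 FPKM. FOS, at 0.759 FPKM, and FOSB, at 0.61 FPKM, stood at ranks 11533 and 12088 with 16 to 77 counts per library, so their values carry the largest counting error.

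**Figure D1:**
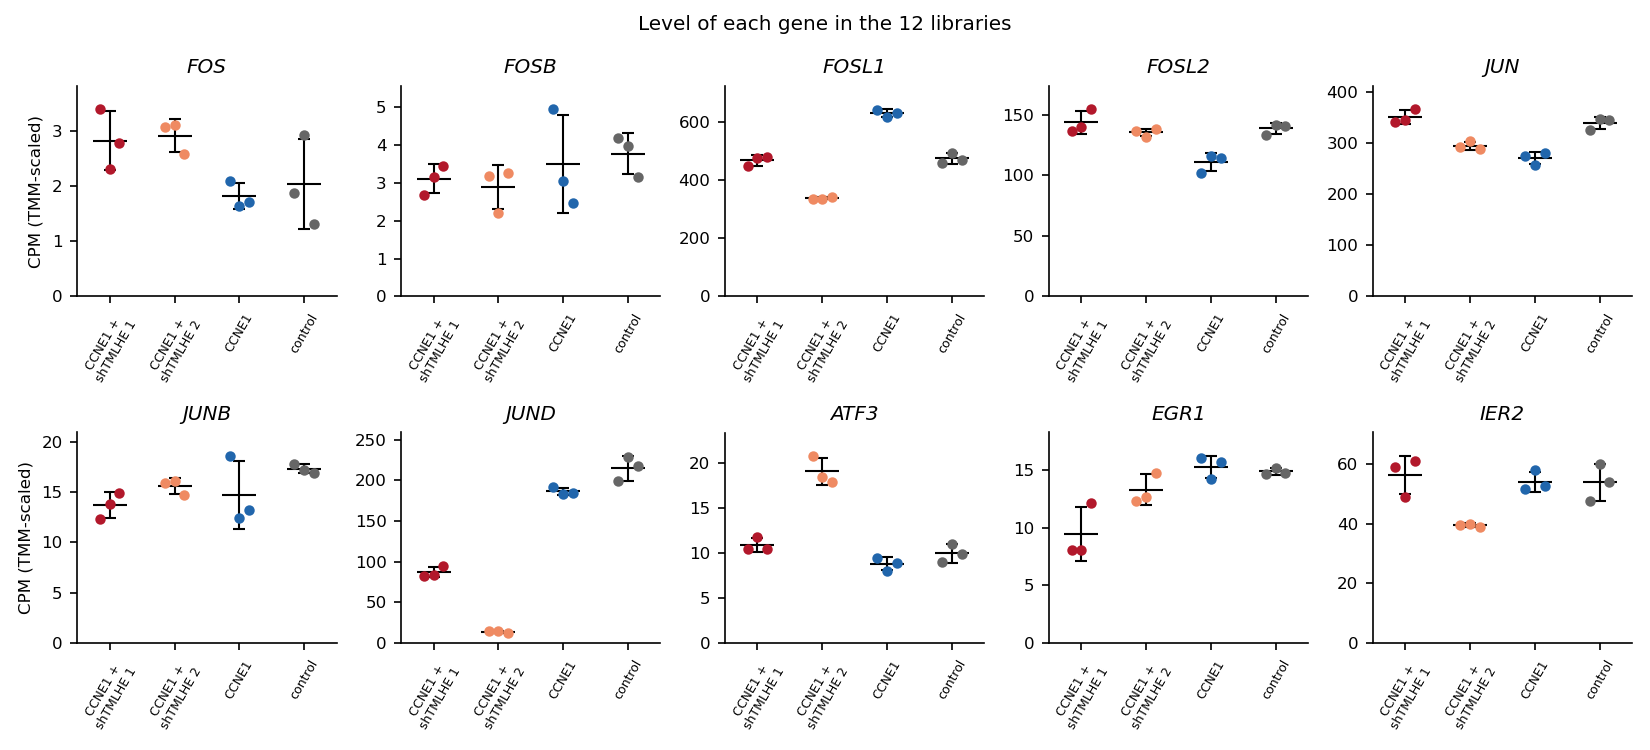
Level of each of the 10 genes in CPM (TMM-scaled; vertical axes start at 0) in the 12 libraries, with a point per library, a horizontal bar for the mean and whiskers for the SD (n = 3). JUND is at 82.7 to 94.1 CPM with shTMLHE 1 and 12 to 14.9 CPM with shTMLHE 2, below all CCNE1 and control libraries, and FOSL1 is highest in the CCNE1 group.

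With the TMM scaling, the 10 genes moved in both directions in every comparison. In CCNE1 overexpression against control, 1 member was higher and 3 were lower by edgeR's quasi-likelihood test at an adjusted p under 0.05, where 25.1% of all tested genes were higher and 19.1% lower. With shTMLHE 1 against the CCNE1 group, 3 were higher and 3 lower, where 30.4% of all genes were higher and 30.3% lower. With shTMLHE 2, 4 were higher and 3 lower, where 36.8% of all genes were higher and 36.2% lower. The median log2 fold changes of the members were -0.18, -0.02 and -0.06 in these comparisons, against 0.05, 0.03 and 0.03 over all tested genes. With so many genes called, these counts are near the background. Both hairpin comparisons use the same 3 CCNE1 libraries, which are also those compared with control.

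**Figure D2:**
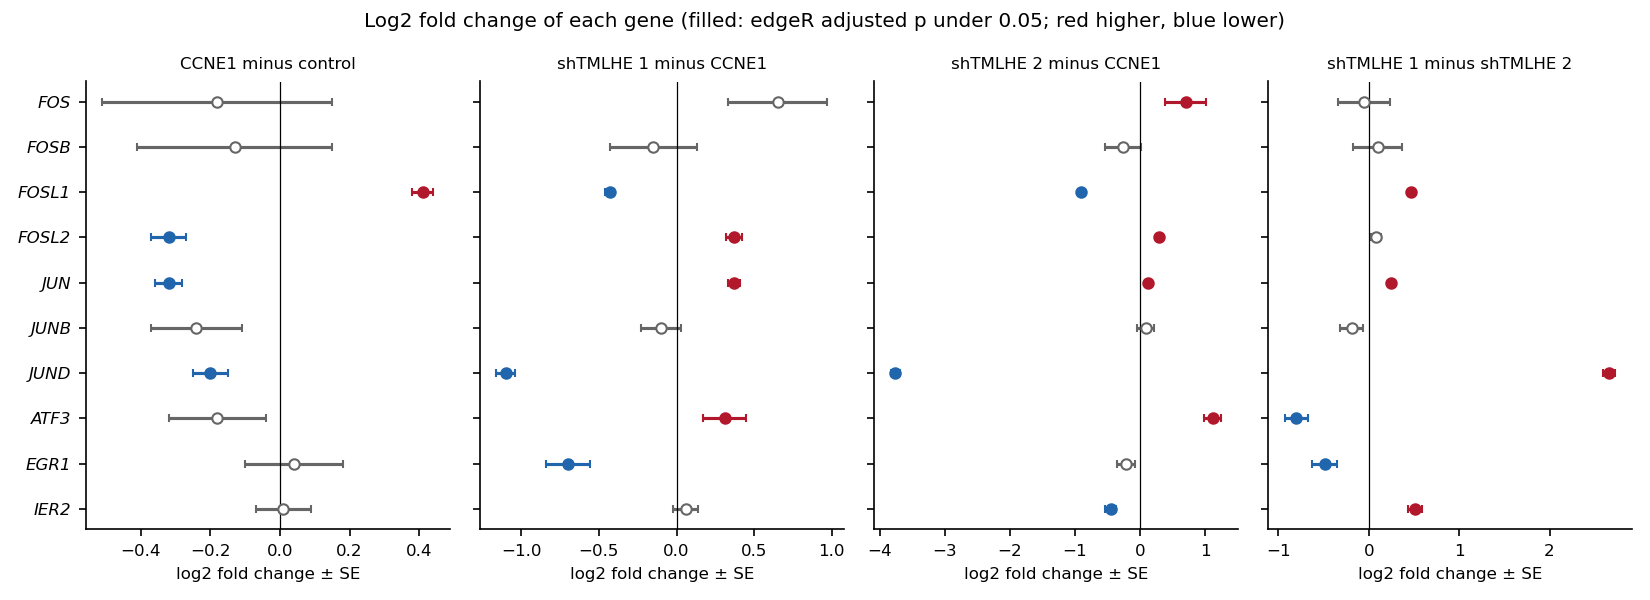
Log2 fold change (horizontal axis, ± SE) of the 10 genes in 4 comparisons; filled points passed edgeR's test at an adjusted p under 0.05, red for higher and blue for lower, and open points did not. FOSL1 is higher in CCNE1 overexpression than in control (0.41) and lower with each hairpin than in the CCNE1 group (-0.43 and -0.90), and horizontal scales differ between panels.

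FOSL1 (FRA1; ENSG00000175592, chr11:65892049-65900573) made up most of the FOS family and was the member higher with CCNE1 overexpression. It was at 641.4, 614.5 and 630.5 CPM in the CCNE1 libraries, against 459.6, 493.8 and 467.9 CPM in control. The groups did not overlap, and the log2 fold change was 0.41 ± 0.03 (SE; edgeR adjusted p = 2.38e-12). Among the hairpin libraries FOSL1 was at 446.2, 475.7 and 478.4 CPM with shTMLHE 1 and 334.1, 335.7 and 340.6 CPM with shTMLHE 2. The shTMLHE 1 libraries thus overlapped with control, whereas all shTMLHE 2 libraries lay below every other library. Relative to the CCNE1 group FOSL1 fell, with log2 fold changes of -0.43 ± 0.03 with shTMLHE 1 (edgeR adjusted p = 1.02e-13) and -0.90 ± 0.04 with shTMLHE 2 (edgeR adjusted p = 6.43e-24). Both falls depended on the scaling. FOSL1 has a GC content of 60%, and after GC and length correction its log2 fold change was 0.06 (adjusted p = 0.0899) with shTMLHE 1 and 0.11 (adjusted p = 0.00276) with shTMLHE 2. On total counts the values were -0.04 (adjusted p = 0.352) with shTMLHE 1 and -0.37 with shTMLHE 2, which still passed (edgeR adjusted p = 1.66e-12). The difference between CCNE1 overexpression and control kept its direction, at 0.39 on total counts and 0.57 with the trend removed.

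FOSL2 (FRA2; ENSG00000075426, chr2:28392448-28417312), the gene with the AP-1 site just past its RefSeq start, was lowest in the CCNE1 group. It was at 136.9, 139.8 and 154.6 CPM with shTMLHE 1 and 136.8, 131.8 and 138.0 CPM with shTMLHE 2. The CCNE1 libraries were at 102.2, 116.4 and 114.4 CPM, below all others, and control was at 133.7, 141.9 and 140.9 CPM. FOSL2 fell in CCNE1 overexpression relative to control (log2 fold change -0.32 ± 0.05, edgeR adjusted p = 3.07e-06) and rose with shTMLHE 1 (0.37 ± 0.05, edgeR adjusted p = 5.49e-08) and shTMLHE 2 (0.29 ± 0.05, edgeR adjusted p = 4.37e-06) relative to the CCNE1 group. Under the GC and length correction the rise with shTMLHE 1 was 0.09 and no longer passed (adjusted p = 0.0986), and that with shTMLHE 2 was 0.24. On total counts the rises were 0.76 and 0.81. The fall with CCNE1 overexpression was -0.19 with the trend removed (adjusted p = 0.00192).

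FOS (ENSG00000170345, chr14:75278774-75282230), the serum-induced founder of the family, was close to the limit of what the depth can resolve. It was at 3.40, 2.32 and 2.78 CPM with shTMLHE 1 and 3.08, 3.11 and 2.58 CPM with shTMLHE 2, against 2.09, 1.65 and 1.71 CPM in the CCNE1 group. Control spread from 1.32 to 2.93 CPM and overlapped with all other groups. The log2 fold change against the CCNE1 group was 0.65 ± 0.32 with shTMLHE 1 (edgeR adjusted p = 0.0743) and 0.70 ± 0.31 with shTMLHE 2 (edgeR adjusted p = 0.0438), and that of CCNE1 overexpression against control was -0.18 ± 0.33. The call with shTMLHE 2 was lost without CCNE1 replicate 2 (0.63, adjusted p = 0.0948) or 3 (0.66, 0.081), without shTMLHE 2 replicate 1 (0.66, 0.106) or 2 (0.65, 0.104), and with no filter on low counts (0.73, 0.0702). Corrected for GC content and length, the changes were 0.76 (adjusted p = 0.0378) with shTMLHE 1 and 1.03 (adjusted p = 0.0043) with shTMLHE 2, and on total counts 1.04 and 1.22.

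FOSB (ENSG00000125740, chr19:45467995-45475179) was at 2.68 to 3.45 CPM with shTMLHE 1, 2.21 to 3.25 with shTMLHE 2, 2.47 to 4.93 in the CCNE1 group and 3.15 to 4.18 in control. All 4 groups overlapped. Its log2 fold changes were -0.13 ± 0.28 for CCNE1 overexpression against control, -0.15 ± 0.28 with shTMLHE 1 and -0.26 ± 0.27 with shTMLHE 2, and their signs turned with the scaling. No difference in FOSB was detectable at this depth.

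JUND (ENSG00000130522, chr19:18279760-18281622), a JUN protein with a steady level in most cells and a gene without introns, had the largest change of the 10 genes with each hairpin under TMM. With shTMLHE 2 this held under the other scalings too, whereas with shTMLHE 1 the change of FOS was larger under both, that of EGR1 after the GC and length correction, and those of JUN and FOSL2 on total counts. It was at 82.7, 84.0 and 94.1 CPM with shTMLHE 1 and 14.1, 14.9 and 12.0 CPM with shTMLHE 2. The CCNE1 libraries were at 191.8, 183.1 and 184.9 CPM, and control at 198.8, 228.9 and 217.2 CPM. No groups overlapped, and the order was shTMLHE 2, shTMLHE 1, CCNE1 and control from low to high. Relative to the CCNE1 group, JUND fell, with log2 fold changes of -1.10 ± 0.06 with shTMLHE 1 (edgeR adjusted p = 1.07e-19) and -3.76 ± 0.07 with shTMLHE 2 (edgeR adjusted p = 2.78e-34), a value lying at the 0.111 percentile of all tested genes. In CCNE1 overexpression against control the log2 fold change was -0.20 ± 0.05 (edgeR adjusted p = 0.00192).

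JUND also lies near the top of the GC range, and GC-rich genes as a group were lower with the hairpins. The 2313 tested genes with a GC content of 60% or more had a median log2 fold change of -0.42 with shTMLHE 1 and -1.17 with shTMLHE 2. Within these, JUND was at the 17.2 percentile with shTMLHE 1 and the 0.346 percentile with shTMLHE 2. With the trend on GC content and length removed, its log2 fold change was -0.53 ± 0.05 with shTMLHE 1 (adjusted p = 1.81e-12) and -2.22 ± 0.06 with shTMLHE 2 (adjusted p = 7.56e-29). On total counts it was -0.71 and -3.23. The direction and the call of both falls held under these scalings and with any library left out, while their size differed by over 1.5 times.

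JUN (ENSG00000177606, chr1:58780788-58784327), a partner of FOS proteins and the gene with the TGACATCA element, was lowest in the CCNE1 group, as FOSL2 was. It was at 340.7, 345.3 and 365.8 CPM with shTMLHE 1, 291.7, 304.0 and 288.2 CPM with shTMLHE 2 and 274.5, 257.4 and 281.1 CPM in the CCNE1 group. Control was at 326.2, 346.6 and 344.1 CPM, overlapping with shTMLHE 1 and above the other 2 groups. JUN fell in CCNE1 overexpression relative to control (log2 fold change -0.32 ± 0.04, edgeR adjusted p = 1.24e-08). It rose relative to the CCNE1 group with shTMLHE 1 (0.37 ± 0.04, edgeR adjusted p = 1.1e-10) and, by little, with shTMLHE 2 (0.12 ± 0.04, edgeR adjusted p = 0.00566). The call with shTMLHE 2 was lost without CCNE1 replicate 2 (0.09, adjusted p = 0.0709) and in limma on log2(FPKM + 0.1) (0.10, adjusted p = 0.054). Other scalings made the rises larger, to 0.46 and 0.59 on GC- and length-corrected values and to 0.77 and 0.65 on total counts. The fall with CCNE1 overexpression was -0.16 with the trend removed (adjusted p = 0.000682).

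JUNB (ENSG00000171223, chr19:12791496-12793315), an immediate early JUN protein that can restrain JUN, was at 12.3, 13.8 and 14.9 CPM with shTMLHE 1 and 15.9, 16.1 and 14.7 CPM with shTMLHE 2. It was at 18.6, 12.4 and 13.2 CPM in the CCNE1 group and 17.8, 17.2 and 16.9 CPM in control. CCNE1 replicate 1 stood above both other CCNE1 libraries, and no comparison passed the test with TMM. Without that library the log2 fold change of CCNE1 overexpression against control was -0.44 (adjusted p = 0.00791), against -0.24 with it, and that of shTMLHE 2 against the CCNE1 group was 0.29 (adjusted p = 0.0488), against 0.09 with it. JUNB has a GC content of 64.9%. On GC- and length-corrected values, it was higher than in the CCNE1 group with shTMLHE 1 (0.47, adjusted p = 0.00242) and shTMLHE 2 (1.40, adjusted p = 3.13e-12), and on total counts by 0.30 (adjusted p = 0.0488) and 0.62 (adjusted p = 5.18e-05). In the annotation 14.2% of its exon bases are shared with HOOK2 on the opposite strand, and the strand setting of the counting is not given in the sources used here.

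As a share of the length-scaled family sum, FOSL1 made up 92 ± 0.359% of the FOS family's FPKM with shTMLHE 1, 89.8 ± 0.219% with shTMLHE 2, 95.2 ± 0.305% in the CCNE1 group and 92.4 ± 0.062% in control (SD, n = 3 each). FOSL2 held 7.47%, 9.52%, 4.44% and 7.14% in these groups, and FOS and FOSB each held at most 0.486% in any library.

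JUND held 30.4 ± 0.65% of the JUN family's FPKM with shTMLHE 1 and 7.4 ± 0.596% with shTMLHE 2, against 54.2 ± 0.968% in the CCNE1 group and 52.3 ± 1.11% in control. JUN held 64.7 ± 0.801% and 84 ± 0.78% with the hairpins, against 41.4 ± 1.13% in the CCNE1 group and 43.4 ± 0.83% in control. JUNB held 4.89% with shTMLHE 1 and 8.63% with shTMLHE 2, against 4.36% and 4.32% in the CCNE1 and control groups. The largest share of the JUN family was thus JUN in both hairpin groups and JUND in the other groups, in every library. The family sums were 154.9 ± 8.29 FPKM with shTMLHE 1, 100.4 ± 3.67 with shTMLHE 2, 189.9 ± 7.07 with CCNE1 and 230.2 ± 12.3 in control for JUN genes. For FOS genes they were 271.8 ± 11.5, 201.4 ± 2.14, 359.7 ± 7.39 and 283.6 ± 11.9 FPKM in these groups. The library size behind the deposited FPKM was 0.819 to 0.833 times the total counts in the CCNE1 and control libraries. It was 1.091 to 1.113 times the total with shTMLHE 1 and 1.207 to 1.209 times with shTMLHE 2. The family sums therefore depend on this scaling between libraries, and sums on total counts were not computed. Shares within a library do not depend on the scaling between libraries. They were not corrected for GC content, which is 56.7% in JUN, 64.9% in JUNB and 69.7% in JUND, and no test was run on them.

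**Figure D3:**
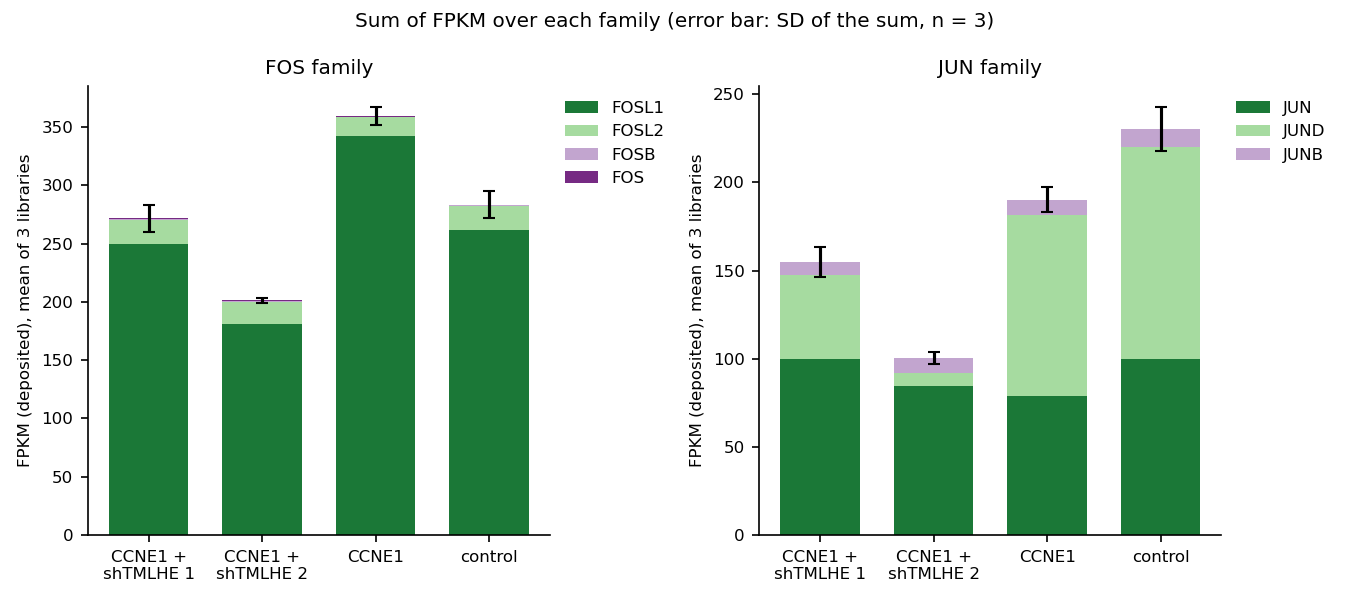
Sum of the deposited FPKM (vertical axis, mean of 3 libraries, from 0) over the FOS family on the left and the JUN family on the right, stacked by gene; the error bar is the SD of the sum. The JUND segment falls to 7.44 FPKM with shTMLHE 2, against 47.2 FPKM with shTMLHE 1, 103 in the CCNE1 group and 120.4 in control, and FOSL1 fills most of each FOS bar. Bar heights depend on the scaling between libraries in the deposited FPKM.

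ATF3 (ENSG00000162772, chr1:212565334-212620777), a stress-induced factor that pairs with JUN proteins and often represses, had the lowest GC content of the 10 genes and rose with shTMLHE 2. It was at 10.4, 11.8 and 10.5 CPM with shTMLHE 1 and 20.8, 18.5 and 17.9 CPM with shTMLHE 2. The CCNE1 libraries were at 9.48, 8.03 and 8.93 CPM and control at 8.99, 11.0 and 9.85 CPM. All shTMLHE 2 libraries lay above every other library. The log2 fold change against the CCNE1 group was 1.12 ± 0.13 with shTMLHE 2 (edgeR adjusted p = 1.15e-09), and it was 1.09 under the GC and length correction and 1.65 on total counts. With shTMLHE 1 it was 0.31 ± 0.14 (edgeR adjusted p = 0.0479), 0.42 with the trend removed and 0.71 on total counts. The call under TMM was lost without CCNE1 replicate 2 (0.25, adjusted p = 0.161) or 3 (0.33, 0.0668), without shTMLHE 1 replicate 1 (0.35, 0.0565), 2 (0.25, 0.18) or 3 (0.34, 0.0619), in DESeq2 (0.31, 0.0559) and in limma-voom (0.32, 0.0542). CCNE1 overexpression against control gave -0.18 ± 0.14 (edgeR adjusted p = 0.336).

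EGR1 (ENSG00000120738, chr5:138465490-138469315), the zinc finger factor with the paired CArG boxes, fell with shTMLHE 1. It was at 8.11, 8.08 and 12.2 CPM with shTMLHE 1 and 12.3, 12.7 and 14.8 CPM with shTMLHE 2, against 16.1, 14.2 and 15.7 CPM in the CCNE1 group and 14.7, 15.2 and 14.8 CPM in control. The shTMLHE 1 libraries were the lowest, with replicate 3 above the other 2. The log2 fold change against the CCNE1 group was -0.70 ± 0.14 with shTMLHE 1 (edgeR adjusted p = 5.96e-05) and -0.21 ± 0.14 with shTMLHE 2 (edgeR adjusted p = 0.171). After removal of the GC and length trend the fall with shTMLHE 1 was -0.63 (adjusted p = 0.000257), and on total counts it was -0.31 and missed the threshold (adjusted p = 0.0575). With shTMLHE 2 the sign turned, to 0.20 (adjusted p = 0.2) with the trend removed and 0.32 (adjusted p = 0.0339) on total counts. CCNE1 overexpression against control gave 0.04 ± 0.14 (edgeR adjusted p = 0.862).

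IER2 (ENSG00000160888, chr19:13150415-13154908), an immediate early nuclear protein, was at 59.1, 49.2 and 61.1 CPM with shTMLHE 1 and 39.8, 40.1 and 39.0 CPM with shTMLHE 2. It was at 51.9, 58.1 and 52.7 CPM in the CCNE1 group and 47.7, 60.3 and 54.0 CPM in control. The shTMLHE 2 libraries were below all others, while the other 3 groups overlapped. IER2 fell by 0.45 ± 0.08 on the log2 scale with shTMLHE 2 relative to the CCNE1 group (edgeR adjusted p = 3.11e-06), and the log2 fold change was 0.06 ± 0.08 with shTMLHE 1 (edgeR adjusted p = 0.557). The direction with shTMLHE 2 turned with the scaling, to 0.07 (adjusted p = 0.391) on total counts and 0.49 (adjusted p = 1.43e-06) after GC and length correction, where shTMLHE 1 gave 0.45 and 0.39. IER2 has a GC content of 61.7%, and 30.8% of its exon bases are shared with AC011446.2 on the opposite strand.

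**Figure D4:**
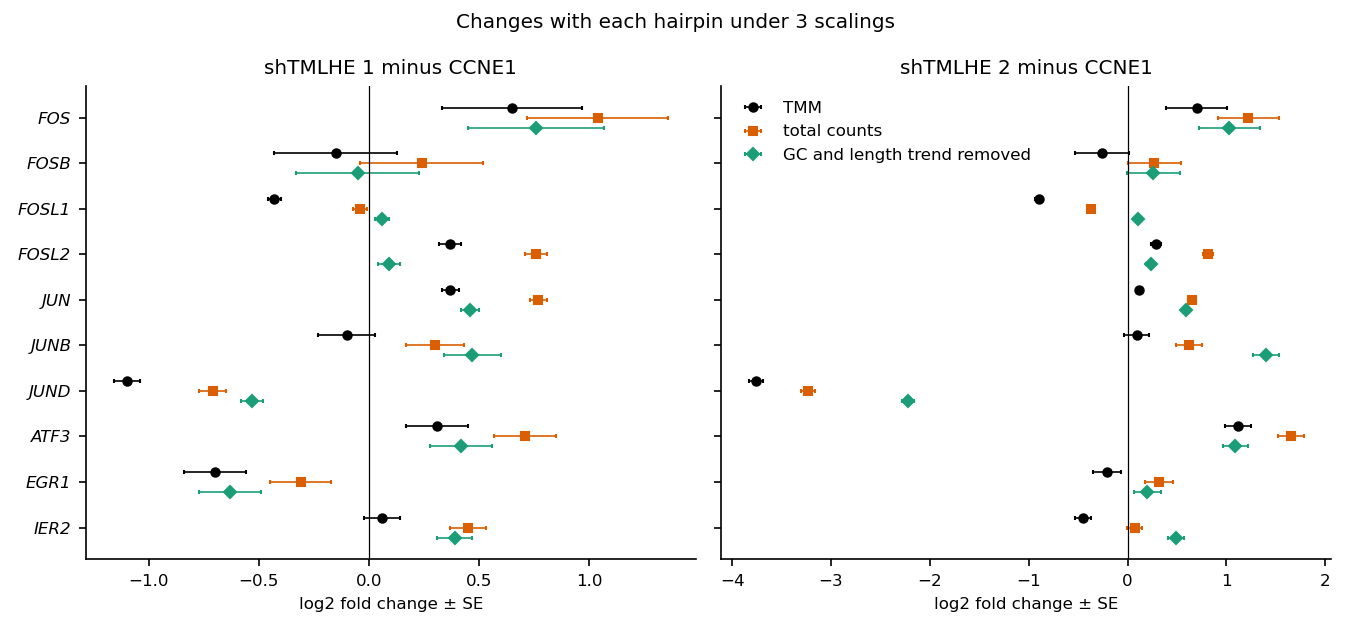
Log2 fold change (horizontal axis, ± SE) of the 10 genes with shTMLHE 1 on the left and shTMLHE 2 on the right, relative to the CCNE1 group, under TMM (circles), total counts (squares) and after removal of the trend on GC content and length (diamonds). JUND stays below 0 and ATF3, JUN, FOSL2 and FOS above 0 under all 3, whereas FOSL1 moves from -0.90 to 0.11 and IER2 from -0.45 to 0.49 with shTMLHE 2.

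The hairpins differed from each other in 6 of the 10 genes. In shTMLHE 1 minus shTMLHE 2, 4 members were higher and 2 lower, where 31.3% of all tested genes were higher and 29% lower. JUND differed most, with a log2 difference of 2.66 ± 0.07 (edgeR adjusted p = 2.21e-28), and was still 1.69 on GC- and length-corrected values. ATF3 (-0.80 ± 0.13, edgeR adjusted p = 9.23e-07) and EGR1 (-0.49 ± 0.14, edgeR adjusted p = 0.003) were lower with shTMLHE 1 than with shTMLHE 2, at -0.67 and -0.83 with the trend removed. FOSL1 (0.47 ± 0.03), JUN (0.25 ± 0.04) and IER2 (0.51 ± 0.08) were higher with shTMLHE 1, and all 3 turned with the trend removed, to -0.05, -0.13 and -0.10. The 4 other genes did not pass, with differences of -0.05 in FOS, 0.10 in FOSB, 0.08 in FOSL2 and -0.19 in JUNB. With the trend removed FOSL2 (-0.14, adjusted p = 0.0104) and JUNB (-0.93, adjusted p = 6.85e-08) passed as lower with shTMLHE 1 than with shTMLHE 2. So did JUN (-0.13, adjusted p = 0.00229), which was called higher under TMM. On total counts JUNB also passed (-0.33, adjusted p = 0.0276), and the difference in JUN was 0.11. Under TMM and against the CCNE1 group, whose libraries both comparisons share, FOSL1 and JUND were called lower with both hairpins, and FOSL2, JUN and ATF3 were called higher with both.

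Across the 12 libraries the members' log2 CPM fell into opposed patterns, which mostly follow the 4 groups and share the scaling and GC content described above. Pearson's r was 0.87 between FOSL1 and JUND, 0.82 between JUND and IER2 and 0.80 between JUN and FOSL2. It was -0.94 between JUND and ATF3 and -0.90 between FOSL1 and ATF3. The most alike genes were sought among other tested genes, leaving out symbols of clones, LINC and MIR genes and numbered open reading frames. Those most like FOSL1 over the 12 libraries were NAPRT (r = 0.989), MCM5 (0.985) and COTL1 (0.984). Those most like JUN were ATXN7L3 (0.956), NAGK (0.954) and ITGA5 (0.935), and those most like EGR1 were WIPF1 (0.936), HNRNPAB (0.930) and RPL11 (0.925).

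Genes around the family were taken from 5 lists, and the changes given for them are log2 fold changes ± SE with an edgeR adjusted p of 5.71e-09 or smaller under TMM. Of the kinases upstream of immediate early genes, MAPK3 and MAP2K2 fell with both hairpins. MAPK3 (ERK1) was at 12.4 ± 1.08 CPM with shTMLHE 1 and 48 ± 1.5 with shTMLHE 2, against 137.3 ± 7.51 CPM in the CCNE1 group and 153.6 ± 4.26 in control. Relative to the CCNE1 group its log2 fold change was -3.47 ± 0.07 with shTMLHE 1 and -1.52 ± 0.06 with shTMLHE 2 (edgeR adjusted p = 4.25e-33 and 8.77e-25). MAP2K2 (MEK2), which phosphorylates ERK, was at 498 ± 14.9 and 122.1 ± 3.25 CPM with the hairpins, against 936.4 ± 22.6 CPM in the CCNE1 group and 607.7 ± 17.3 in control. Its log2 fold change was -0.91 ± 0.03 with shTMLHE 1 and -2.94 ± 0.04 with shTMLHE 2 (edgeR adjusted p = 3.68e-24 and 3.57e-39). MAPK3 and MAP2K2 have GC contents of 61.4% and 60.9%, and under the GC and length correction MAPK3 was at -3.09 and -0.54 and MAP2K2 at -0.59 and -2.05. On total counts MAPK3 was at -3.07 and -0.99 and MAP2K2 at -0.52 and -2.41. Of the 23 upstream kinases and serum response factors tested, 9 were higher and 8 lower with shTMLHE 1, and 12 and 9 with shTMLHE 2. In CCNE1 overexpression against control 8 were higher and 7 lower, among them MAP2K2 (0.62) and ELK3 (0.85), a partner of serum response factor. Of all tested genes, 30.4% were higher and 30.3% lower with shTMLHE 1, 36.8% and 36.2% with shTMLHE 2, and 25.1% and 19.1% in CCNE1 overexpression.

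Of the 28 other immediate early genes tested of the 30 listed, 18 were higher and 5 lower with shTMLHE 1, where 30.4% and 30.3% of all tested genes were, and their median log2 fold change was 0.45. With shTMLHE 2 the counts were 12 and 10 (median 0.13), and in CCNE1 overexpression against control 8 and 8 (median 0.04). Of all tested genes, 36.8% were higher and 36.2% lower with shTMLHE 2, and 25.1% and 19.1% in CCNE1 overexpression. The medians over all tested genes were 0.03 with each hairpin and 0.05 in CCNE1 overexpression. Under the GC and length correction the counts were 16 and 4 with each hairpin, and on total counts 22 and 1 with shTMLHE 1 and 20 and 3 with shTMLHE 2. Of all 15378 tested genes, the correction gave 3640 higher and 4912 lower with shTMLHE 1, and 4223 and 5403 with shTMLHE 2. Total counts gave 7844 and 2490 of all tested genes with shTMLHE 1, and 8315 and 3443 with shTMLHE 2. CTGF (CCN2), a secreted matricellular protein, rose by 1.03 ± 0.04 with shTMLHE 1 and by 1.38 ± 0.04 with shTMLHE 2 relative to the CCNE1 group, and was also 0.86 ± 0.05 higher in CCNE1 overexpression than in control. Its level was 284.3 ± 4.72 and 361.9 ± 3.87 CPM with the hairpins, against 139.5 ± 4.59 CPM in the CCNE1 group and 76.7 ± 6.94 in control. MCL1, a survival factor of the BCL2 family, rose by 0.91 ± 0.05 with shTMLHE 1 and 1.15 ± 0.05 with shTMLHE 2, values of 0.76 and 0.75 with the trend removed. KLF2, a zinc finger factor, was 1.49 ± 0.08 higher with shTMLHE 1 than with shTMLHE 2, a difference of 0.74 with the trend removed.

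Of 26 genes held to be AP-1 targets that were tested of the 32 listed, 15 were higher and 6 lower with shTMLHE 1 (median log2 fold change 0.66) and 16 and 6 with shTMLHE 2 (median 0.73), while 9 were higher and 8 lower in CCNE1 overexpression against control (median -0.05). Of all tested genes, 30.4% were higher and 30.3% lower with shTMLHE 1 (median 0.03), 36.8% and 36.2% with shTMLHE 2 (0.03), and 25.1% and 19.1% in CCNE1 overexpression (0.05). Corrected for GC content and length, 13 and 6 targets were called with shTMLHE 1 and 14 and 8 with shTMLHE 2, and on total counts 20 and 4, and 19 and 5. The correction gave 3640 and 4912 of all 15378 tested genes with shTMLHE 1 and 4223 and 5403 with shTMLHE 2. Total counts gave 7844 and 2490, and 8315 and 3443. CCND1 (cyclin D1) was at 582 ± 17.6 CPM with shTMLHE 1, 293.8 ± 2.36 with shTMLHE 2, 254 ± 10.7 in the CCNE1 group and 144.8 ± 3.82 in control. It rose by 1.20 ± 0.04 with shTMLHE 1 and by 0.81 ± 0.04 in CCNE1 overexpression against control. CCND1 shares 10.3% of its exon bases with LTO1 on the opposite strand.

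HMGA1, a chromatin protein and known target of FOSL1 and JUN, was among the targets that fell, with log2 fold changes of -1.13 ± 0.03 with shTMLHE 1 and -1.70 ± 0.03 with shTMLHE 2. TIMP1, an inhibitor of matrix metalloproteinases, had log2 fold changes of -1.25 ± 0.04 with shTMLHE 1 and -1.47 ± 0.04 with shTMLHE 2. On GC- and length-corrected values, HMGA1 was at -0.69 and -0.67 and TIMP1 at -0.74 and -0.56. On total counts HMGA1 was at -0.74 and -1.18 and TIMP1 at -0.85 and -0.94. The list was drawn up for this family from general knowledge and has not been measured as AP-1 bound in these cells.

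Among 23 tested of 26 listed bZIP partners and relatives, 11 were higher and 3 lower with shTMLHE 1, 11 and 7 with shTMLHE 2, and 9 and 5 in CCNE1 overexpression against control. The shares over all tested genes were 30.4% and 30.3% with shTMLHE 1, 36.8% and 36.2% with shTMLHE 2, and 25.1% and 19.1% in CCNE1 overexpression. CEBPB, which can pair with ATF and FOS proteins, was at 111.9 ± 4.41 CPM with shTMLHE 1, 19.5 ± 0.955 with shTMLHE 2, 90.7 ± 1.85 in the CCNE1 group and 110.6 ± 10 in control. Its log2 fold change of -2.22 ± 0.07 with shTMLHE 2 was -0.87 after GC and length correction, and 11.8% of its exon bases are shared with CEBPB-AS1 on the opposite strand. ATF2, the partner of JUN at its promoter element, rose by 1.56 ± 0.10 with shTMLHE 2, but by 0.38 with the trend removed (adjusted p = 0.000763). NFE2L2, the oxidative stress factor, rose by 1.42 ± 0.09 with shTMLHE 2, and by 1.20 with the trend removed. NFE2L2 shares 20.9% of its exon bases with genes on either strand. ATF4, the factor of the integrated stress response that also induces ATF3, was 0.43 ± 0.03 higher in CCNE1 overexpression than in control. Its log2 fold change of -0.28 with shTMLHE 1 turned to 0.11 on total counts and 0.01 with the trend removed.

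Feedback regulators of the pathway were mixed, with 10 higher and 4 lower of 21 tested with shTMLHE 1, 11 and 7 with shTMLHE 2, and 6 and 7 in CCNE1 overexpression against control. Over all tested genes the shares were 30.4% and 30.3% with shTMLHE 1, 36.8% and 36.2% with shTMLHE 2, and 25.1% and 19.1% in CCNE1 overexpression. NAB2, a corepressor of EGR1 and an EGR1 target, was at 45.7 ± 2.46 and 32.3 ± 0.408 CPM with the hairpins, against 76.1 ± 2.92 CPM in the CCNE1 group. It fell, with log2 fold changes of -0.73 ± 0.06 with shTMLHE 1 and -1.23 ± 0.06 with shTMLHE 2, and values of -0.35 and -0.20 once corrected for GC content and length. On total counts they were -0.34 and -0.70. DUSP5, a nuclear phosphatase of ERK, rose by 1.03 ± 0.05 with shTMLHE 1 and 0.70 ± 0.05 with shTMLHE 2. These rises were 1.21 and 1.25 with the trend removed, and 1.43 and 1.23 on total counts. DUSP1, a phosphatase of JNK and p38, fell by 0.58 ± 0.04 with shTMLHE 1, with a log2 fold change of -0.35 once the trend was removed and -0.18 on total counts. DUSP4 rose by 1.53 ± 0.18 in CCNE1 overexpression against control.

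**Figure D5:**
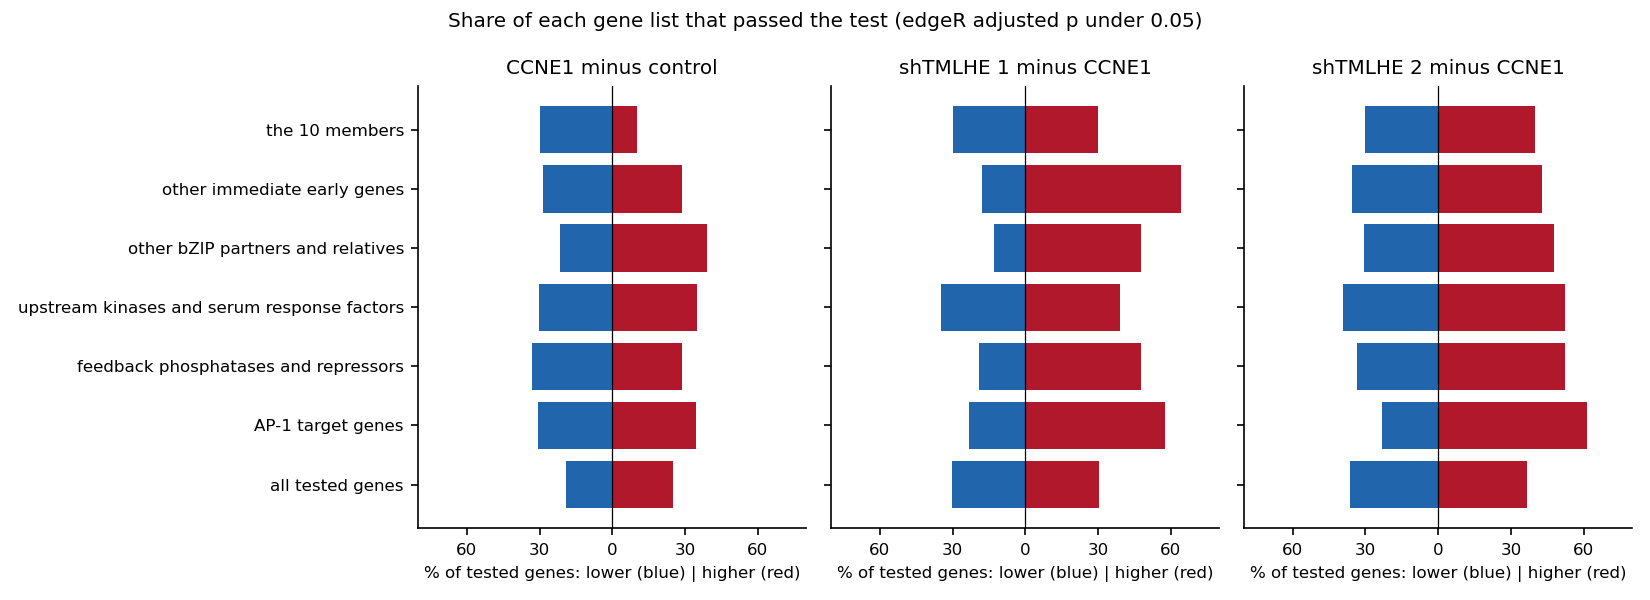
Percentage of the tested genes of each list that were lower (blue, to the left) or higher (red, to the right) at an edgeR adjusted p under 0.05, in 3 comparisons, with all tested genes at the bottom. Of the 10 members 1, 3 and 4 were higher and 3 were lower in each comparison from left to right. Of all tested genes, 25.1%, 30.4% and 36.8% were higher and 19.1%, 30.3% and 36.2% lower. AP-1 targets had 15 and 16 of 26 higher with the hairpins, and 6 lower with each.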

How the data were processed

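RNA-seq was measured in 12 libraries of Ovcar8 cells, 4 groups of 3 by their labels. The deposited table holds whole-number counts per gene, which the authors made without normalization, and FPKM that the authors computed from the same counts. The submitters' processing notes name STAR 2.6.1, DESeq2 and the GRCh38 build. Which program counted the reads, with which strand setting and how it handled multi-mapping reads, is not given in the sources used here. Libraries were made with the NEBNext Ultra 2 kit from Trizol and column RNA with DNase, per the labels' protocols. The deposited gene lengths equal the exon lengths of GENCODE 29 for 100% of genes, and GC content, overlaps and coordinates were taken from that annotation.

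Counts were tested with edgeR 4.0.16 in R 4.3.3 (filterByExpr by group, TMM, robust quasi-likelihood fit over all 12 libraries with 8 residual degrees of freedom). Benjamini-Hochberg adjustment ran over all 15378 tested genes, with calls at an adjusted p under 0.05. CPM use TMM-scaled library sizes. The 10 genes and all lists were chosen with earlier results of these data known. Named genes were all members, CCNE1, TMLHE, up to 3 genes per list and comparison with the smallest p, and the 3 genes most like FOSL1, JUN and EGR1 by Pearson's r of log2 CPM (prior count 2). A gene so named in any comparison may be described in the others too. Some genes that this rule names are not reported here. Symbols renamed since the table was made (CTGF for CCN2, CYR61 for CCN1) were matched by gene ID.

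Alternatives were RLE, upper quartile and total-count scaling, other filters, DESeq2 1.42.0, limma-voom, limma-trend (limma 3.58.1) on log2(FPKM + 0.1) and log2(FPKM + 1), a replicate block, fits on the compared groups alone, adjusted p under 0.01, each library left out, and an offset that removes each library's spline trend (5 degrees of freedom) of log2 CPM on GC content and length. The scripts were tested on simulated data. Replicate libraries differed by more than sampling noise (chi-square per gene 2.09 to 5.63), so none was counted as a repeat.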

Additional observations from a re-analysis of the deposited data

Results flagged for a closer look

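The change of 6 of the 10 genes relative to the CCNE1 group differed between the hairpins, by edgeR's test of shTMLHE 1 minus shTMLHE 2. Of all tested genes, 31.3% were higher and 29% lower in that comparison, so the count of 6 is near the background. The log2 differences were 2.66 in JUND, 0.51 in IER2, 0.47 in FOSL1, 0.25 in JUN, -0.49 in EGR1 and -0.80 in ATF3. Because both changes are taken against the same 3 CCNE1 libraries, each difference equals the direct comparison of the hairpin groups. With the trend on GC content and length removed, the differences in JUND (1.69), ATF3 (-0.67) and EGR1 (-0.83) kept their direction and call, whereas FOSL1 (-0.05), JUN (-0.13) and IER2 (-0.10) changed sign. Of these last genes JUN passed in the new direction (adjusted p = 0.00229), and FOSL1 and IER2 did not pass. TMLHE was at 0.956 ± 0.286 CPM with shTMLHE 1 and 0.482 ± 0.241 CPM with shTMLHE 2 (SD, n = 3 each), and CCNE1 at 1269 ± 49 and 847.1 ± 21.2 CPM. Their part in these differences was not tested.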

How the results depend on the processing

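Of the counts of members called, 144 of 152 values under the alternatives stayed within 1.5 times. With total counts, 6 members were higher and 1 lower with shTMLHE 1. Of all 15378 tested genes, 7844 were then higher and 2490 lower. With the GC and length trend removed, 5 members were higher with shTMLHE 1, and JUND (-0.53) and EGR1 (-0.63) were lower. Under that setting 7 were higher and 1 lower with shTMLHE 2, and 1 was higher and 5 lower in shTMLHE 1 minus shTMLHE 2. Of all tested genes, 3640 were then higher and 4912 lower with shTMLHE 1. The all-gene counts were 4223 and 5403 with shTMLHE 2, and 3848 and 3558 in shTMLHE 1 minus shTMLHE 2. With a library left out, 2 to 5 were higher with shTMLHE 2, the 2 without CCNE1 replicate 2. In the fit on all libraries 36.8% of all tested genes were higher with shTMLHE 2. All-gene counts by direction were not computed with a library left out. Single members kept direction and call in 690 values, changed sign in 34, lost the call in 25 and gained it in 11.

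Signs turned as follows (log2 fold changes). For shTMLHE 1 against the CCNE1 group, total counts gave FOSB 0.24, JUNB 0.30 and ATF4 0.11, and the trend removal FOSL1 0.06, JUNB 0.47 and ATF4 0.01. For shTMLHE 2, total counts gave FOSB 0.27, EGR1 0.32, IER2 0.07 and CCNE1 0.29, and the trend removal FOSB 0.26, FOSL1 0.11, EGR1 0.20, IER2 0.49 and CCNE1 0.13. For shTMLHE 1 minus shTMLHE 2, total counts gave FOSB -0.03 and FOSL2 -0.05, and the trend removal FOSB -0.31, FOSL1 -0.05, FOSL2 -0.14, JUN -0.13, IER2 -0.10 and HMGA1 -0.02. In CCNE1 overexpression against control, FOSB was 0.02 with the trend removed, and IER2 -0.01 on total counts and FPKM and -0.02 with the compared groups alone.

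With each library left out, changes in CCNE1 overexpression against control ranged from -0.40 to 0.16 in FOS, -0.45 to 0.06 in FOSB, -0.07 to 0.10 in IER2 and -0.20 to 0.04 in TMLHE. Those with shTMLHE 1 ranged from -0.34 to 0.16 in FOSB, -0.01 to 0.15 in IER2 and -0.21 to 0.10 in JUNB, and those with shTMLHE 2 from -0.45 to 0.06 in FOSB and -0.02 to 0.29 in JUNB. In shTMLHE 1 minus shTMLHE 2 they ranged from -0.20 to 0.08 in FOS and -0.06 to 0.20 in FOSB. The cause of the sign changes was not tested.

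Of the counts over the other lists, 21 of 760 moved by over 1.5 times, all under these 2 scalings. On total counts, with shTMLHE 1 the bZIP counts were 17 higher and 1 lower, against 11 and 3 with TMM, the kinase counts 17 and 3, against 9 and 8, and 2 feedback regulators were lower, against 4. With shTMLHE 2 the bZIP counts were 18 and 2, against 11 and 7, and 5 kinases and 2 feedback regulators were lower, against 9 and 7. With the trend removed, 5 bZIP genes were lower with shTMLHE 1. In CCNE1 overexpression it left 5 bZIP genes higher, 5 kinases higher and 1 lower, and 4 feedback regulators lower, against 9, 8, 7 and 7. In shTMLHE 1 minus shTMLHE 2 it left 9 immediate early genes, 5 kinases and 4 feedback regulators higher, against 14, 10 and 8. Of all 15378 tested genes, total counts gave 7844 higher and 2490 lower with shTMLHE 1, and 8315 and 3443 with shTMLHE 2. The trend removal gave 3640 and 4912 with shTMLHE 1 and 3111 and 2522 in CCNE1 overexpression. It gave 3848 and 3558 in shTMLHE 1 minus shTMLHE 2.

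Deviations of libraries with the same replicate number correlated by -0.046 to 0.026 over all tested genes. No pairing by number was thus detected, which does not exclude one. With the replicate block, 1 member was higher and 3 lower in CCNE1 overexpression, 2 and 3 with shTMLHE 1, 3 and 3 with shTMLHE 2, and 4 and 2 in shTMLHE 1 minus shTMLHE 2. Of all 15378 tested genes, 3769 were higher and 2855 lower in CCNE1 overexpression and 4621 and 4610 with shTMLHE 1. The all-gene counts were 5611 and 5512 with shTMLHE 2, and 4725 and 4400 in shTMLHE 1 minus shTMLHE 2. The lost calls were ATF3 with shTMLHE 1 (0.31, edgeR adjusted p = 0.0593) and FOS with shTMLHE 2 (0.69, edgeR adjusted p = 0.0527). Depth limits FOS and FOSB, at 16 to 77 counts per library, and with 3 libraries a group small changes of these genes could not be resolved.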
